A study of Rattus norvegicus with 12 samples.

Results

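Peripheral myelin and Schwann cell genes were followed in the contused rat spinal cord through 8 genes, Prx, Pmp2, Pmp22, Ncmap, Cdh19, Foxd3, Scn7a and Egr2. They were chosen as known genes of this lineage, with earlier results of these data in view, and all 8 could be placed among the 17423 genes of the deposited tables and were present in all 4 groups, at an FPKM of at least 3.64. RNA was sequenced from 12 female rats in 4 groups of 3, injured at an age of 16 to 18 weeks. SD rats (Sprague-Dawley, Hsd:SD) are immunocompetent. AN rats (Athymic Nude, Hsd:RH-rnu/rnu) lack a thymus and are deficient in T cells, and they are of a different genetic background, so that T cell deficiency and background cannot be told apart. All rats received a moderate contusion of 200 kdyn, and a 1 mm segment through the injury was taken either 1 week (acute phase) or 8 weeks (chronic phase) later. The rats of the chronic phase were thus older when the tissue was taken, and age and time after injury cannot be told apart. No uninjured cord is among the groups. The tables hold the authors' FPKM, the number of sequenced fragments scaled to transcript length and to the fragments mapped, with 1 value for each group of 3 rats. No spread between rats and no depth per gene can therefore be given, and no difference below has a replicate check or a test.

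Schwann cells are the myelinating glia of peripheral nerves and nerve roots, while oligodendrocytes make the myelin of the spinal cord itself. Peripheral myelin differs from central myelin in its proteins. Schwann cells are absent from most of the healthy cord, but after contusion they are known to enter the lesion from the roots and to arise from glial precursors within it, and to wrap spared axons. The transcription factors Sox10 and Egr2 together switch on the peripheral myelin genes, and immature or injured Schwann cells carry instead genes such as Ngfr.

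The 8 genes fall into 4 roles. Pmp22 (a membrane protein of compact myelin), Pmp2 (a lipid-binding protein of the same layers) and Ncmap (a small membrane protein of noncompact myelin) are myelin components. Prx (periaxin) is a scaffold that ties the Schwann cell membrane to its basal lamina. Egr2 and Foxd3 are transcription factors, the first of the myelinating state and the second of the neural crest, from which Schwann cells descend. Cdh19 (a cadherin of Schwann cell precursors) and Scn7a (an atypical sodium channel of nonmyelinating Schwann cells) lie at the surface. Pmp22, Scn7a, Pmp2 and Egr2 are also used by other cell types, so their levels are not those of Schwann cells alone.

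Because Egr2 is a member and a known activator of peripheral myelin genes, the 250 bases before the start of each gene were searched for the EGR family letters GCGTGGGNG and the shorter GTGGGNG, and for the SOX letters ACAAAG and ACAATG, on both strands. The RefSeq promoter table of the GRCr8 build held 7 of the 8 genes, and Pmp2 was not in it. GTGGGNG was found before 3 of the 7 (Prx, Ncmap and Scn7a), against 25.6% of all 33469 promoters of the same length. With so few promoters, 3 of 7 is near that share. The full GCGTGGGNG, which contains the shorter letters, was found before Scn7a alone of the 7, against 1.46% of all promoters. ACAAAG and ACAATG, which 16.3% and 11.1% of all promoters hold, were found before none of the 7. The 3 promoters with EGR letters are shown, with the matches in capitals.
Prx: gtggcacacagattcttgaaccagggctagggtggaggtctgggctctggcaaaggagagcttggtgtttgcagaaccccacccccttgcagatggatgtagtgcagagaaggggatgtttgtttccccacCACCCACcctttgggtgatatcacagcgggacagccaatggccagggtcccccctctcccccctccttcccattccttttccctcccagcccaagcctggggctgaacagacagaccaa
Ncmap: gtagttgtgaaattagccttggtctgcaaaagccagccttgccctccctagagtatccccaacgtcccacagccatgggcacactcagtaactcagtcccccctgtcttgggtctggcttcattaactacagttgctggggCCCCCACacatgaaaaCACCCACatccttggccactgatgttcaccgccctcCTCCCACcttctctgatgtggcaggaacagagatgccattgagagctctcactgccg
Scn7a: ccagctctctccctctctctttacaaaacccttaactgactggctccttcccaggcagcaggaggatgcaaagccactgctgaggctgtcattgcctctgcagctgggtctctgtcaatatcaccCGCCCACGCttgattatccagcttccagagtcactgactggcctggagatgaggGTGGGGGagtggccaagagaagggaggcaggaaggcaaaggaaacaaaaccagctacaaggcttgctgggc
In Ncmap the letters occurred 3 times within the last 109 bases before the start, each on the reverse strand. In Prx they lay 119 bases before the start. In Scn7a the full letters lay 125 bases before the start on the reverse strand, and a short match lay 71 bases before it on the forward strand. A match is a run of letters and not a measured binding site. Coordinates below are those of the deposited tables on the RN4 build.

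The question of the study was how T cell deficiency alters the injured cord, and the first comparison was between strains at 1 week. All 8 genes were lower in AN than in SD rats, against 49.4% of the 11068 genes with a mean FPKM of at least 1 over both acute groups. Of the 8, 4 were at least 2-fold lower (Ncmap, Prx, Pmp2 and Pmp22), where 10.1% of all genes were, and none was at least 2-fold higher, where 1.89% were. Their median log2 ratio of AN over SD was -1.02, and that of all genes was 0.01. Symbols for 6 of the 8 came from a part of the supplementary gene table that holds genes picked for an acute difference, which ties their presence to this comparison. When names were taken without that table, 6 of the 8 could be placed (not Ncmap and Cdh19), all 6 were lower in AN rats and 3 were at least 2-fold lower. In bulk tissue, fewer Schwann cells and less RNA per cell cannot be told apart.

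At 8 weeks the order of the strains was turned around. Of the 8 genes, 7 were higher in AN than in SD rats, against 51.2% of 11198 genes. The difference was smaller than at 1 week for Ncmap, Prx, Pmp22, Pmp2 and Cdh19, and larger for Foxd3, Egr2 and Scn7a. Only Foxd3 was at least 2-fold higher, where 2.05% of all genes were, and none was at least 2-fold lower, where 5.55% were. Foxd3, named by its position between neighbouring genes, fell under the line in some of the alternative settings given at the end. The median log2 ratio of the 8 was 0.50, and that of all genes was 0.01. Without Egr2 and Foxd3, whose names rest on gene order, the median was 0.30. Genes lower in AN rats at 1 week and higher at 8 weeks made up 16.4% of the 11180 genes with a mean FPKM of at least 1 over the 4 groups, and 7 of the 8 members.

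**Figure D1:**
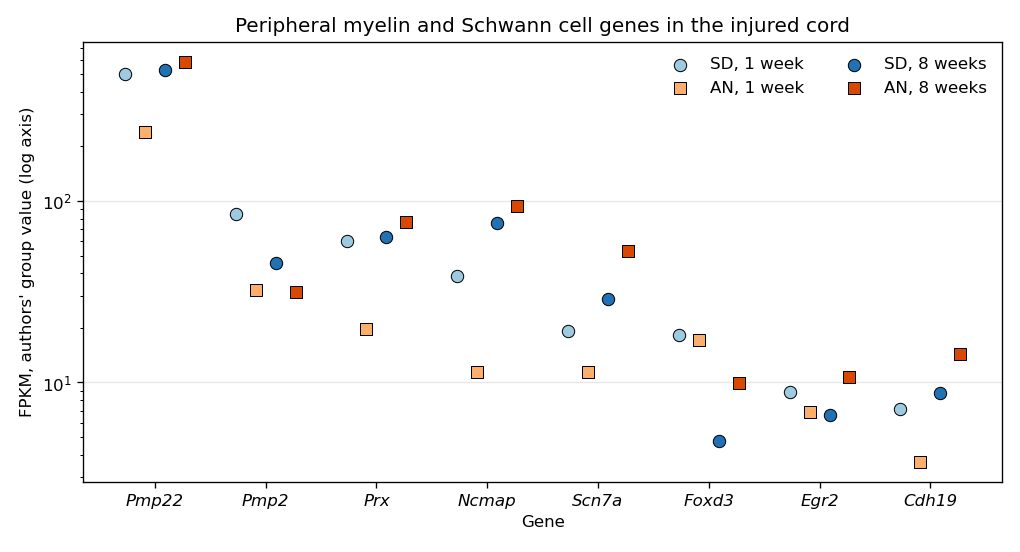
Authors' FPKM on a log axis for the 8 genes, with 1 point for each group of 3 rats (blue circles SD, orange squares AN, pale 1 week, dark 8 weeks) and no error bars because values per rat were not analysed here. For Pmp22, Prx, Ncmap, Scn7a and Cdh19 the pale square (AN, 1 week) is the lowest of the 4 points and the dark square (AN, 8 weeks) the highest.

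Ncmap (RGD:1587554) lies on chromosome 5 from 154163765 to 154167138. SD rats had 38.6 FPKM and AN rats 11.4 at 1 week, and at 8 weeks the values were 75.4 for SD and 93.4 for AN. The acute AN group was far below the other 3, and the log2 ratio of AN over SD went from -1.76 to 0.31. This was the largest acute difference of the 8 genes, 3.39-fold in favour of SD rats.

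Prx (RGD:619960) lies on chromosome 1 from 82577849 to 82598184. SD rats had 60.1 FPKM and AN rats 19.7 at 1 week, and at 8 weeks the values were 63.1 for SD and 77.0 for AN. Here again the acute AN group alone was low, and the other 3 stood close together. The log2 ratio was -1.61 at 1 week and 0.29 at 8 weeks.

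Pmp22 (RGD:3359) lies on chromosome 10 from 49305834 to 49335864 and had the highest level of the 8 genes in every group. SD rats had 500.2 FPKM and AN rats 239 at 1 week, and at 8 weeks the values were 526 for SD and 579.7 for AN. The pattern was that of Prx at a smaller size, with log2 ratios of -1.07 and 0.14. In humans, extra copies of this gene cause an inherited demyelinating neuropathy.

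Pmp2 (RGD:1585218, chromosome 2, 93566283 to 93570202) was the exception among the myelin components. SD rats had 84.4 FPKM and AN rats 32.4 at 1 week, and at 8 weeks the values were 45.4 for SD and 31.4 for AN, so it stayed lower in AN rats in both phases. The log2 ratios were -1.38 and -0.53. The level of AN rats at 8 weeks was 0.97 of that at 1 week, and that of SD rats was 0.538.

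Cdh19 (RGD:1307169, chromosome 13, 18148714 to 18230353) was at 7.18 FPKM in SD rats and 3.64 in AN rats at 1 week, and at 8.78 and 14.3 at 8 weeks. It was 1.97-fold lower in AN rats at first, just under the 2-fold line, and 1.63-fold higher later. Scn7a (RGD:61922, chromosome 3, 48633301 to 48710734) was at 19.2 FPKM in SD rats and 11.4 in AN rats at 1 week, and at 28.7 and 52.7 at 8 weeks. Both surface genes thus had their lowest level in acute AN rats and their highest in chronic AN rats. The log2 ratios of Scn7a were -0.75 and 0.87.

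The transcription factors differed little between strains at 1 week. Egr2 (RGD:621608, chromosome 20, 21883884 to 21888177) was at 8.92 FPKM in SD rats and 6.83 in AN rats at 1 week, and at 6.60 and 10.7 at 8 weeks, with log2 ratios of -0.38 and 0.69. Foxd3 (RGD:621715, chromosome 5, 120334467 to 120335794) was at 18.3 FPKM in SD rats and 17.2 in AN rats at 1 week, a log2 ratio of -0.09, and at 4.74 and 9.94 at 8 weeks, a log2 ratio of 1.07. Foxd3 was the only gene of the 8 whose levels were higher at 1 week than at 8 weeks in both strains by more than 1.5-fold. Both identifiers were named by their position between neighbouring genes, a procedure that was correct for 95.6% of the 2412 known genes it named when their own names were hidden.

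The difference between phases was then taken directly, as the acute minus the chronic log2 ratio. It was -1 or less in 7 of the 8 genes, against 6.01% of the 11180 genes. It was most negative for Ncmap (-2.07), Prx (-1.90), Cdh19 (-1.68) and Scn7a (-1.62). Pmp22 (-1.21), Foxd3 (-1.15) and Egr2 (-1.08) followed, and Pmp2 (-0.85) was outside the line. Counted from the most negative of all genes, Ncmap held place 87 and Prx place 109. The median over the 8 genes was -1.42, and over all genes it was -0.04. This difference contains the acute ratio, so the tie of 6 symbols to the acute phase holds for it too. When names were taken without the supplementary gene table, Ncmap and Cdh19 could not be placed. Of the 6 genes left, 5 were at -1 or less, with a median of -1.18. Some other cells of the segment had the same sign, but the fibroblast genes were split, with Col3a1 at 0.22 and Pdgfrb at -0.24. Of the central myelin genes 6 of 11 were at -1 or less (median -1.06), of the neuronal genes 3 of 4 (median -1.997), and the astrocyte gene Slc1a2 was at -1.43.

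**Figure D2:**
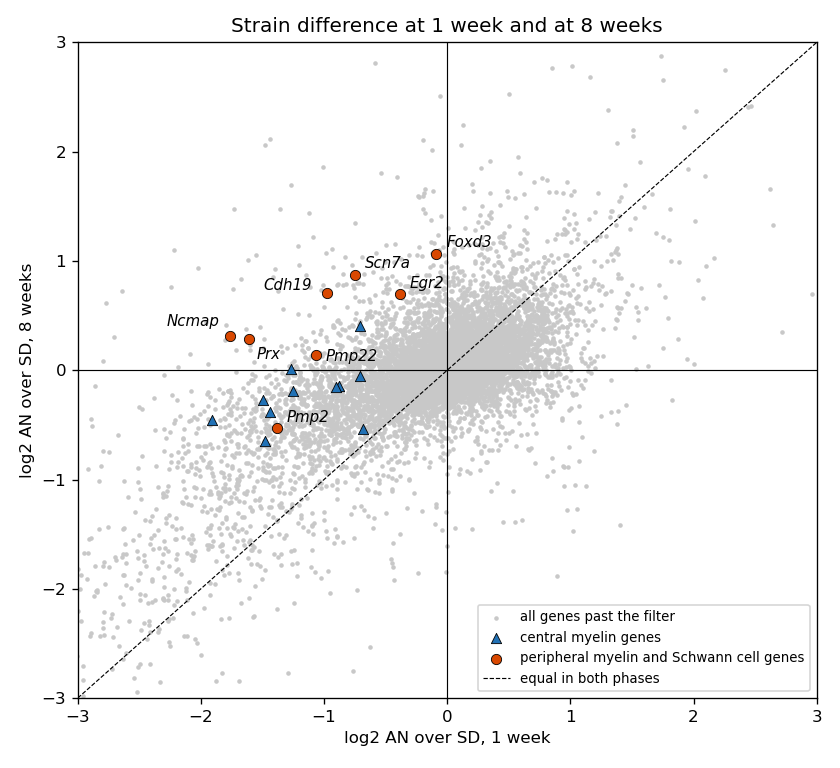
The log2 ratio of AN over SD at 1 week (horizontal) and 8 weeks (vertical) for the 8 genes (orange circles), central myelin genes (blue triangles) and all 11180 genes past the filter (gray), of which 178 lie beyond the axes. The dashed line marks equal ratios. All 8 orange circles lie left of 0 and 7 lie above 0, while 9 of the 11 blue triangles lie below 0.

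Along time, 6 of the 8 genes moved further in AN than in SD rats, and Pmp2 and Foxd3 moved further in SD rats. Of all 11180 genes 73.7% moved further in AN rats, so this share is near the background. The tables of the phases were normalized separately by the authors, so levels are set across them only as a description. The median log2 ratio of 8 weeks over 1 week was 1.62 over the 8 genes in AN rats and 0.07 in SD rats, and over all genes it was 0.03 and 0.01. For central myelin it was 1.03 in AN and 0.06 in SD rats, and for the neuronal genes 1.94 and -0.01. In AN rats Ncmap was higher at 8 weeks by 3.04 on the log2 scale, Scn7a by 2.20, and Prx and Cdh19 by 1.97 each. In SD rats the same genes were higher by 0.97, 0.58, 0.07 and 0.29. Pmp2 was lower at 8 weeks in both strains, with log2 ratios of -0.89 in SD and -0.04 in AN rats, and so was Foxd3, with -1.95 and -0.79.

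**Figure D3:**
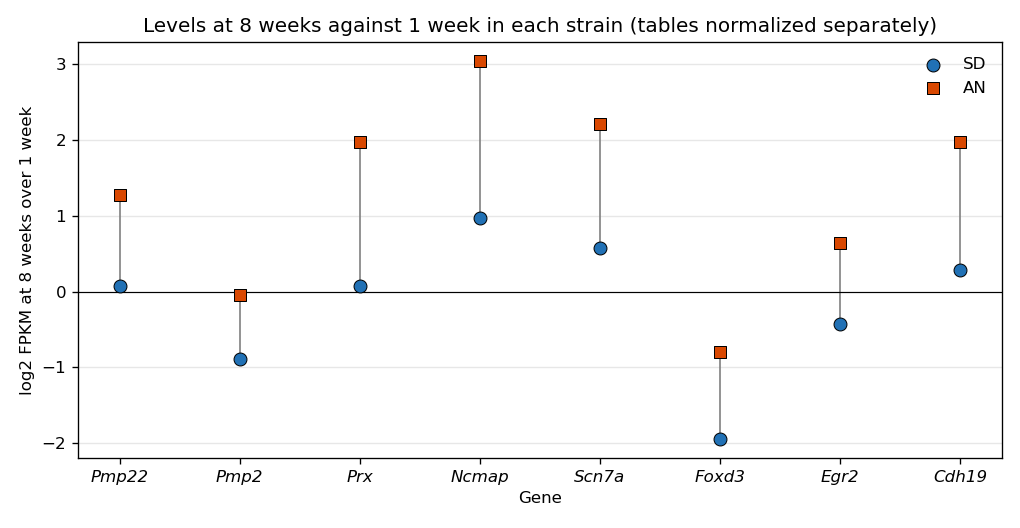
The log2 ratio of FPKM at 8 weeks over 1 week for each gene in SD (blue circles) and AN (orange squares) rats, with a gray line between the strains. The square is above the circle for every gene, since the length of each line equals the difference between phases given in the text, and for Pmp2 and Foxd3 both points are below 0.

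The levels also set the members in order within a group, FPKM being a measure per length. Pmp22 was highest in each of the 4 groups. The lowest gene was Cdh19 in both acute groups and Foxd3 in both chronic groups. The highest level was 69.7 times the lowest in SD rats and 65.6 times in AN rats at 1 week, and 110.8 and 58.3 times at 8 weeks. Ncmap moved from the fourth place in acute SD rats and the sixth in acute AN rats to the second in both chronic groups, as Pmp2 went from the second place to the fourth in SD and the fifth in AN rats. Whether neighbours in this order differ beyond the spread between rats cannot be told from group values.

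Other genes of the lineage were counted by role. Of 16 genes of Schwann myelin and its contact with the axon, 10 could be matched. All 10 were lower in acute AN rats, 4 of them at least 2-fold, and 6 were higher in chronic AN rats, none at least 2-fold. The shares of all genes were 10.1% for an acute level at least 2-fold lower and 51.2% for a higher chronic level, so the chronic count is near the background. The median log2 ratio was -0.71 at 1 week and 0.05 at 8 weeks. Cldn19, a tight junction protein of peripheral myelin, was at 21.6 FPKM in SD rats and 6.97 in AN rats at 1 week, and at 18.4 and 23.9 at 8 weeks. Like Prx it was low in the acute AN group alone, with log2 ratios of -1.64 and 0.38. Drp2, a partner of periaxin that is named by gene order, had -1.34 and -0.22. Cd9, Cadm4 and Ndrg1, which other cells also use, differed less, with log2 ratios between -0.64 and -0.61 at 1 week and between -0.36 and 0.06 at 8 weeks. Mal, a lipid raft protein of both kinds of myelin, had -1.76 and -0.38, Sh3tc2, a trafficking protein of Schwann cells, had -0.77 and 0.41, and Mtmr2 and Itga6, both named by gene order, had -0.13 and -0.30 at 1 week. Of the 10 symbols 7 came from the supplementary gene table, so that these counts carry the same tie to the acute phase.

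Among 9 transcription regulators 4 were matched, and Sox10 was not among them. Pou3f1, which precedes Egr2 in myelinating Schwann cells, was at 8.32 FPKM in SD rats and 4.64 in AN rats at 1 week, and at 4.95 and 9.10 at 8 weeks. Its log2 ratios were -0.84 and 0.88, next to the -0.75 and 0.87 of Scn7a. Nab2, a cofactor of Egr2, was instead higher in AN rats in both phases, with 0.65 and 0.49. Pou3f2, a relative of Pou3f1 that neural progenitors also carry, had -1.04 and -0.09, and Yy1, a general factor named by gene order, had 0.05 and -0.02.

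Of 7 ligands and receptors 3 were matched. Dhh, the hedgehog ligand that Schwann cells release, was at 15.3 FPKM in SD rats and 8.02 in AN rats at 1 week, and at 8.17 and 10.7 at 8 weeks, with log2 ratios of -0.93 and 0.39. Erbb3, the neuregulin receptor of Schwann cells, is named by gene order and was at 38.4 FPKM in SD rats and 32.6 in AN rats at 1 week, and at 16.7 and 24.2 at 8 weeks, with log2 ratios of -0.24 and 0.54. Both were thus lower in AN rats at first and higher later. Nrg1, the ligand on axons, was lower in AN rats in both phases, at 1.57 FPKM for SD and 0.596 for AN at 1 week and at 1.13 and 0.388 at 8 weeks. It did not pass the filter at 8 weeks, and another row of the tables has the same coordinates, so its value is uncertain.

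Of 17 genes of immature and repair Schwann cells 8 were matched. All 8 were lower in acute AN rats, 1 of them at least 2-fold, with a median log2 ratio of -0.62. In the chronic phase 7 passed the filter, 2 were higher in AN rats and 1 was at least 2-fold lower, with a median of -0.19. With so few genes, 1 of 8 and 1 of 7 at least 2-fold lower are near the 10.1% and 5.55% of all genes. Ngfr, the low-affinity neurotrophin receptor of unwrapped Schwann cells, was at 54.9 FPKM in SD rats and 35.3 in AN rats at 1 week, and at 12.6 and 18.0 at 8 weeks. Like Foxd3 it was lower at 8 weeks in both strains, and its log2 ratio of AN over SD went from -0.64 to 0.51. Gap43, which regrowing axons also carry, stayed lower in AN rats, with -1.24 and -1.03. Ncam1 (named by gene order) and Olig1, which neurons and central glia carry, had -0.74 and -0.94 at 1 week and -0.19 and -0.52 at 8 weeks. Sox2, a factor of immature glia, had -0.60 and -0.76.

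Central myelin served for comparison. Of 16 central myelin genes 11 were matched, all 11 were lower in acute AN rats and 6 were at least 2-fold lower, with a median log2 ratio of -1.25. Among these 6 is Mog, whose value is uncertain because another row of the tables has its coordinates. The acute direction was thus shared by both kinds of myelin. At 8 weeks the median was -0.19 and 2 of the 11 were higher in AN rats, while 7 of the 8 peripheral genes were. Those 8 are not all myelin components, and Ncmap, Pmp22 and Pmp2, which are, had 0.31, 0.14 and -0.53. Of the 10 matched genes of Schwann myelin and axon contact 6 were higher, near the 51.2% of all genes, with a median of 0.05. Cldn11, named by gene order, was the central gene furthest on the AN side, with a log2 ratio of 0.40, and Mag, which both kinds of glia make, was at 0.01. Cnp and Mobp had chronic log2 ratios of -0.14 and -0.46. The difference between the lists could not be tested on group values, and 10 of the 11 symbols came from the supplementary gene table. Naming without it placed 8 central genes, all 8 lower in acute AN rats, 3 at least 2-fold, and 2 higher in chronic AN rats.

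**Figure D4:**
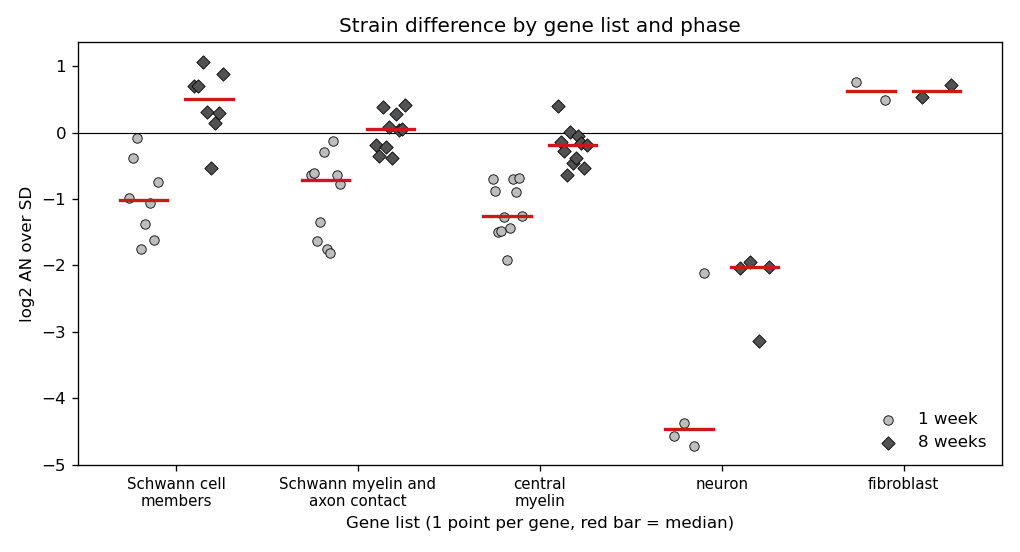
The log2 ratio of AN over SD for each matched gene past the filter in 5 gene lists, at 1 week (pale circles) and 8 weeks (dark diamonds), with the median of each list as a red bar. The medians of the 8 Schwann cell genes are -1.02 and 0.50, those of central myelin -1.25 and -0.19, and those of 4 neuronal genes -4.47 and -2.03.

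Genes of other cells in the segment differed between the same groups. The 4 matched neuronal genes (Snap25, Nefl, Nefm and Syt1) were each at least 2-fold lower in AN rats in both phases, and their summed FPKM was 582 for SD and 26.8 for AN at 1 week and 548 and 108 at 8 weeks. Another row of the tables has the coordinates of Nefl, so its value is uncertain. Of 8 genes of peripheral and root neurons 5 were matched, with sums of 55.2 and 3.00 at 1 week and 31.2 and 8.30 at 8 weeks. Only Prph, a filament protein of neurons that project to the periphery, passed the filter. Only 1 of 5 astrocyte genes was matched, Slc1a2, at 59.5 FPKM for SD and 18.4 for AN at 1 week and at 91.1 and 75.8 at 8 weeks. The matched fibroblast genes, Col3a1 and Pdgfrb, both named by gene order, were higher in AN rats in both phases, with a summed FPKM of 1237 and 2083 at 1 week and 409 and 601 at 8 weeks. Those of skeletal muscle, Acta1 and Tnnt3 (the latter named by gene order), summed to 21.3 and 7.82 and then 13.0 and 7.18. Melanocytes share the neural crest origin of Schwann cells, and their 3 matched genes (Dct, Tyrp1 and Mlana, the last 2 named by gene order) summed to at most 1.70 in any group. The part of the neurons, fibroblasts, astrocytes and muscle in the differences of the 8 genes was not tested.

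The genes whose levels over the 4 groups were most like those of the members were sought among 3352 directly named genes that reached 1 FPKM in all 4 groups. Many of these names came from the supplementary gene table, which holds genes with an acute strain difference, and most of the nearest genes were named through it. The likeness was the distance between log2 profiles over 4 group values, each centred on its own mean. Among the 3 nearest to Prx were Cldn19 (distance 0.26) and Pla2g3 (0.28), a secreted phospholipase. Nearest to Scn7a were C4b (0.18), a complement component whose near-identical copy makes its value uncertain, Gjb2 (0.29), a gap junction protein, and Rnf182 (0.30). Nearest to the median of the 8 were Tent5b, Sult5a1, Lifr, Prima1, Epb41l4b and Rasgef1c, at distances from 0.13 to 0.23. Pmp22 was the member nearest to that median, at 0.16, and Foxd3 the furthest, at 2.34.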

How the data were processed

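Polyadenylated RNA of 12 cord segments, 3 rats in each of 4 groups, was sequenced by the authors as paired-end reads. Per the paper and the submitters' processing notes, reads were trimmed with CutAdapt, mapped to RN4 with TopHat (1.5.0), assembled with Cufflinks (0.0.6) using quartile normalization, merged per time point and compared with CuffDiff. The deposited tables, 1 per phase, hold FPKM as 1 value for each strain, and each was normalized on its own. They also hold the authors' log2 fold changes, test statistics, P values and Q values, which were not used. Depth per gene and the spread between rats are not in these columns, so no test was run.

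Rows of the 2 tables were joined by identifier. Groups were taken from the strain and time point of the labels. The log2 ratio is AN over SD with no pseudocount. Counts use genes with a mean FPKM of at least 1 over the groups compared and above 0 in each, and a 2-fold line. Fold changes planted in copies of the acute SD values were recovered by the same code, which checks its arithmetic alone. The 8 genes, the lists and the settings for naming were chosen with earlier results of these data known, the last with Egr2 and Foxd3 in view.

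Identifiers were named from the supplementary gene table (1947) and from RGD synonyms in the GRCr8 RefSeq gene table (2725). Another 5904 were named where 1 gene and 1 identifier alone agreed in position (within 10000 bases) and length (within 2-fold) between named neighbours, and 6847 stayed unnamed. That supplementary table was held only in part, as its genes with an acute difference, and only its symbols were used. Named in the text were the 8 genes, up to 4 of the most abundant matched genes of each list, Erbb3, Ngfr and Dhh, and the genes nearest in profile to the members. A gene that this rule names is not reported here. Mal, Drp2, Sh3tc2, Mtmr2 and Itga6 were added after their values were seen. Mog was also named later, because another row of the tables has its coordinates. Sequences are from the RefSeq promoter table. Python (3.11.15) with pandas (2.3.3) was used.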

Additional observations from a re-analysis of the deposited data

How the results depend on the processing

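No paired analysis was possible because the tables give 1 value for each group, and for the same reason no rat could be left out in turn. Over the alternatives tried, the acute and chronic medians of the 8 genes and their difference kept their direction, and no ratio of a single gene changed sign. Without the genes named by order the chronic median was 0.30 rather than 0.50. With all 8 genes, 4 or 5 were at least 2-fold lower in acute AN rats, and 6 at a 1.5-fold line, while 6 or 7 had an acute minus chronic log2 ratio of -1 or less, and 8 passed at a 1.5-fold line. Of the 6 genes left without those named by order these counts were 4 and 5, and of the 6 named without the supplementary gene table they were 3 and 5. The 1 gene at least 2-fold higher in chronic AN rats, Foxd3, became 0 after adding 1 to each FPKM (log2 ratio 0.93), after dividing each group by its sum (1.00), and without genes named by order. At a 1.5-fold line there were 4. Over all genes, 309 rather than 672 had a difference of -1 or less with 1 added, 1286 with no filter, 366 with a mean FPKM of at least 5 and 1617 at a 1.5-fold line. The counts lower in acute AN rats were 1122 in the main setting, 2184 with no filter, 560 with a mean of at least 5 and 1849 at a 1.5-fold line. In the chronic phase they were 622, 1290, 266 and 1087. The counts higher in AN rats were 209 at 1 week, with 438, 130 and 816 in those settings and 129 with 1 added, and 229 at 8 weeks, with 565, 130, 673 and 156. Of the 6 genes nearest to the median of the members, 1 was also among the nearest 6 by correlation and 1 by the 2 ratios alone, so these names depend on the measure. What depth limits could not be judged, since reads per gene are not given in these columns.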
